A study of Drosophila melanogaster with 12 samples.

Results

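On this array, 20 genes that carry only a systematic CG name had higher messenger RNA values in heads of lit flies than in heads of flies in darkness, and this account describes those 20 genes. They were chosen by their values. A gene was taken when its probe set matched exactly 1 symbol made of CG and digits, its mean over the 12 arrays was at least 4 on the log2 scale, and the mean of the 3 lit arrays exceeded the mean of the 9 unlit arrays by at least 0.2. The probe set with the highest mean stood for a gene. The array measured 4482 such CG genes among 10843 genes with 1 symbol, and 2216 of the CG genes reached the mean of 4. Of these, 23 met the difference, and 3 of the 9 genes that the selection leaves out by name were among them (CG2121, CG5455 and CG14186).

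Adult heads of y w; tim01 Drosophila melanogaster were profiled at 12 times. All flies carried the mutations y and w and the tim01 allele of timeless, and no wild-type heads were analysed here. The flies had lived for 3 days under cycles of light and darkness, 12 h each (LD), and were then sampled every 4 h through another such day and through the next day in constant darkness (DD). The groups were LD light (ZT2, ZT6 and ZT10, counted in hours from lights-on), DD subjective day (CT2, CT6 and CT10, the same hours without light), DD subjective night (CT14, CT18 and CT22) and LD dark (ZT14, ZT18 and ZT22), each of 3 arrays. Each array held RNA pooled from about 100 to 200 heads, the age and sex of the flies are not given in the labels, and every time has 1 array, so that the 3 arrays of a group are different hours and their SD includes any change between those hours. The LD day came first, so that between LD light and the DD arrays light cannot be told apart from the day of collection or the age of the flies. Between LD light and LD dark, on the same day, light cannot be told apart from the clock hour. The lit-minus-unlit difference mixes these comparisons. In pooled heads, more RNA per cell and more cells of a type cannot be told apart.

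A CG name is the number given to a predicted gene when the fly genome was annotated, and a gene keeps it until it is named for a phenotype or a relative. In the fly head, light acts through the rhodopsins of the compound eye and through cryptochrome, which in light causes the TIM protein to be degraded. Flies without working TIM lack the feedback loop of the circadian clock, so their heads have been used to look at what the light cycle does to RNA without the clock. All 20 genes are protein-coding in the RefSeq gene table and still carry their CG name there. Only CG9377 has a synonym that names a protein family, SPH166, where SPH stands for serine protease homolog. The function of the other genes is not annotated in the sources used here.

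The values are RMA values, which are background-corrected probe intensities normalized between arrays and summarised per probe set on the log2 scale, so that a difference of 1 is a doubling. The transcript of tim, whose mutation affects its protein, lay between 6.44 and 6.78 in its brightest probe set over the 12 arrays. CT2 stood apart in overall level, with an array median of 4.0 where the other 11 arrays lay between 4.06 and 4.10. Head identity is taken from the sample labels. Listed markers with a probe set numbered 12 of 17 for photoreceptors, 9 of 12 for neurons and 7 of 8 for glia. Their median levels were 8.29, 4.55 and 4.96. Lists for tissues outside the head had median levels of 6.70 (midgut), 5.32 (thorax muscle), 5.15 (female germline and follicle) and 4.76 (male germline and accessory gland). These levels therefore do not settle head identity. Of 16 measured midgut genes, 15 were lower in the lit than in the unlit arrays by at least 0.2, as were 18 of 21 male germline and accessory gland genes and 7 of 13 thorax muscle genes. The midgut list's median, relative to each gene's own mean, lay between -1.34 and -0.02 in the lit arrays and between -1.47 and 1.98 in the unlit ones, and these ranges overlap. Its group means were -0.76 in LD light, -0.77 in the DD subjective day, -0.08 in LD dark and 1.63 in the DD subjective night. For the male list they were -0.36, -0.28, -0.08 and 0.74 in that order, and for muscle -0.13, -0.09, -0.02 and 0.22. LD light and the DD subjective day thus lay close together, and the DD subjective night was highest. The part of these tissues in the differences described here was not tested.

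The lit-minus-unlit differences of the 20 genes lay between 0.20 and 0.49, with a median of 0.25, which corresponds to folds between 1.15 and 1.41. They are small. The SD of a gene over the 9 unlit arrays had a median of 0.11 and reached 0.40. Since these differences chose the genes, they are a description and no test was made of them. The genes were of middle to high brightness, with means between 4.06 (CG5937) and 7.33 (CG5273), brighter than 49.56% and 95.02% of the tested probe sets. The highest of the 12 values was in a lit array for 19 genes: 6 had it at ZT2, 8 at ZT6 and 5 at ZT10. The exception was CG5273, which was highest at ZT18.

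**Figure D1:**
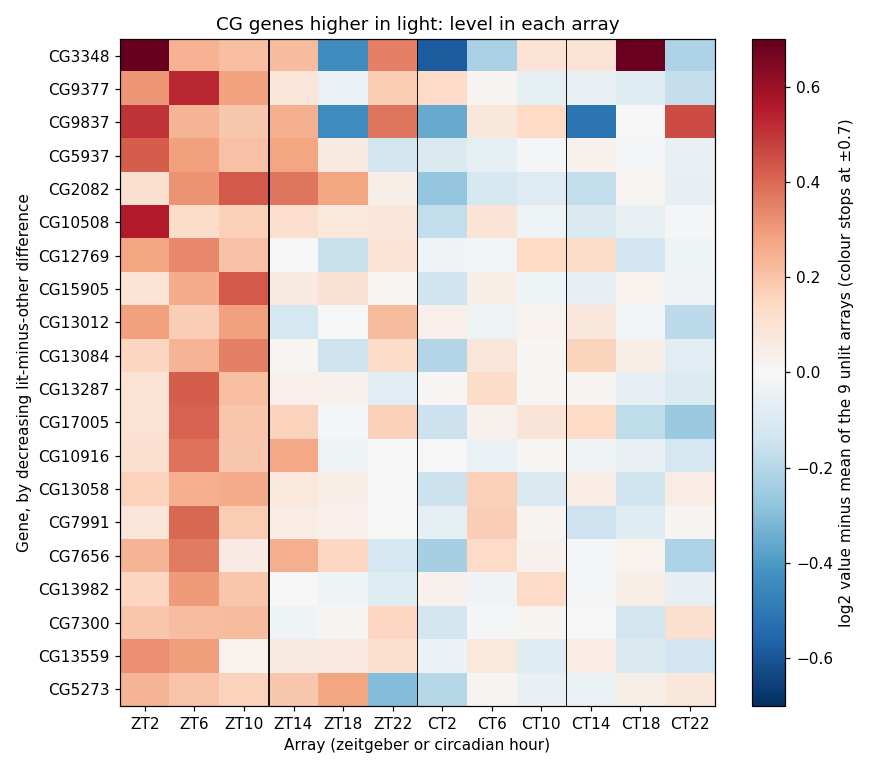
Heat map of the 20 CG genes (rows, by decreasing lit-minus-unlit difference) in the 12 arrays (columns, in order of collection), coloured by log2 value minus the gene's mean over the 9 unlit arrays. The 3 lit columns are red for almost every gene, and CG3348 and CG9837 also have strongly red and strongly blue cells among the unlit columns.

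CG3348 had the largest difference, 0.49. Its values were 7.01 at ZT2, 6.22 at ZT6 and 6.19 at ZT10 in the light, followed by 6.20, 5.54 and 6.33 at ZT14, ZT18 and ZT22. In constant darkness they were 5.40, 5.75 and 6.08 at CT2, CT6 and CT10 and 6.08, 6.67 and 5.76 at CT14, CT18 and CT22. Only ZT2 lay above every unlit array, and 3 unlit arrays were at or above the lowest lit one. Without ZT2 the difference was 0.23, and the SD over the unlit arrays, 0.40, was the widest of the 20 genes.

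CG9377, the serine protease homolog, showed the widest clear gap between lit and unlit arrays. It stood at 5.52, 5.74 and 5.49 at ZT2, ZT6 and ZT10. It was at 5.29, 5.16 and 5.39 at ZT14, ZT18 and ZT22, at 5.34, 5.23 and 5.14 at CT2, CT6 and CT10, and at 5.15, 5.12 and 5.04 at CT14, CT18 and CT22. All lit values exceeded all unlit ones, by 0.10 at the closest, and the difference of 0.37 was between 0.30 and 0.42 when any 1 of the lit arrays was left out. Its lowest value was that of the last array, CT22.

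CG9837 varied as widely in darkness as between light and darkness. Its values were 5.52, 5.26 and 5.21 in the light, 5.27, 4.58 and 5.39 in the LD night, 4.66, 5.10 and 5.16 in the DD subjective day and 4.51, 5.02 and 5.47 in the DD subjective night, each in order of collection. Among the lit arrays ZT2 alone exceeded all unlit ones. The difference of 0.31 stood beside an SD of 0.36 over the unlit arrays.

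CG5937, the dimmest of the genes, was highest at ZT2 and lower at each array from ZT14 to ZT22. It had 4.40, 4.26 and 4.18 in the light, 4.26, 4.04 and 3.85 in the LD night, 3.88, 3.91 and 3.97 in the DD subjective day and 4.01, 3.97 and 3.93 in the DD subjective night. The unlit array ZT14 lay above the lit array ZT10. All other unlit arrays were below the lit ones, and the difference was 0.30.

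CG2082 followed another course than the lit hours. It was at 5.82, 6.03 and 6.14 at ZT2, ZT6 and ZT10 and at 6.09, 5.99 and 5.75 at ZT14, ZT18 and ZT22. In constant darkness it had 5.44, 5.60 and 5.62 by subjective day and 5.54, 5.72 and 5.66 by subjective night. ZT14 and ZT18 were thus as high as the lit arrays, and all 6 DD arrays lay below all 6 LD arrays; over all probe sets, 2.57% had all 6 DD arrays below the 3 LD dark ones. The mean in LD light exceeded that in LD dark by 0.06, the smallest such value of the 20 genes, and exceeded the DD subjective day by 0.44.

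CG10508 stood out at ZT2. It read 5.91 at ZT2, then 5.49 and 5.52 at ZT6 and ZT10, 5.47, 5.43 and 5.44 in the LD night, 5.18, 5.45 and 5.32 in the DD subjective day and 5.26, 5.30 and 5.35 in the DD subjective night. The lit arrays lay above all unlit ones, with a gap of 0.015. Without ZT2 the difference of 0.28 was 0.15, under the 0.2 of the selection.

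**Figure D2:**
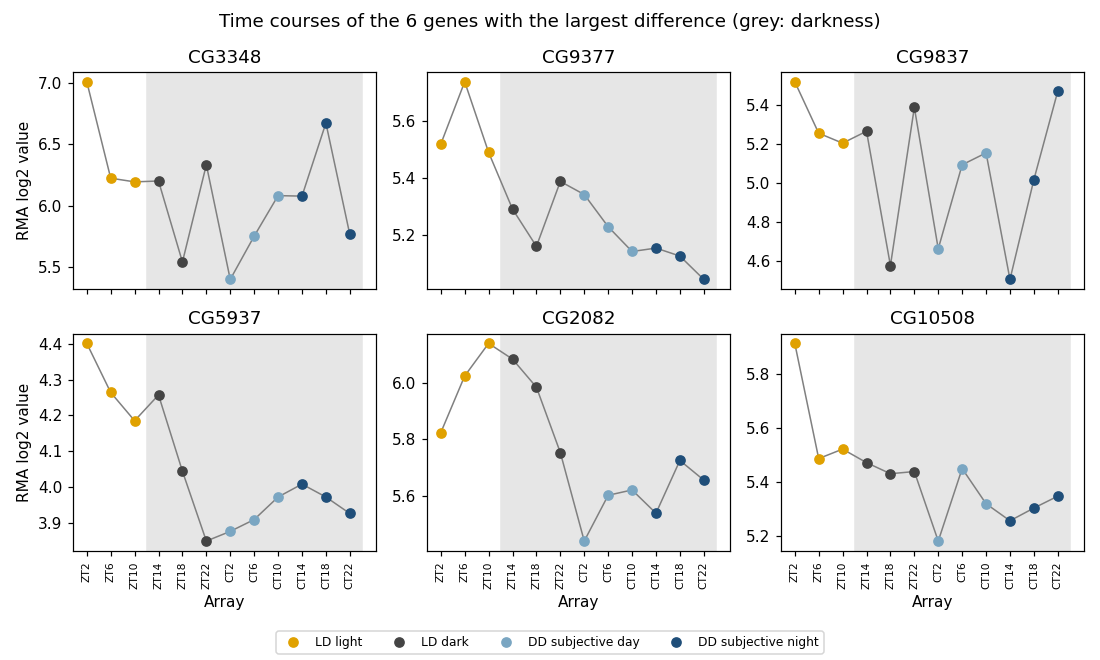
RMA log2 values (vertical axes, each with its own range) of the 6 genes with the largest lit-minus-unlit difference over the 12 arrays in order of collection. Points are single arrays coloured by group, and grey marks darkness. CG9377 and CG10508 have all lit points above all others, while CG2082 is as high at ZT14 and ZT18 as in the light and lower on the whole DD day.

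CG12769 and CG15905 had SDs of 0.11 and 0.07 over the unlit arrays. CG12769 had 5.18, 5.23 and 5.10 in the light, 4.90, 4.74 and 4.99 in the LD night, 4.88, 4.88 and 5.04 in the DD subjective day and 5.03, 4.76 and 4.87 in the DD subjective night, so that all lit values were above all unlit ones. CG15905 had 4.99, 5.15 and 5.32 in the light, and its unlit values were 4.95, 4.99 and 4.90, then 4.75, 4.93 and 4.86, then 4.83, 4.91 and 4.86 in the LD night, the DD subjective day and the DD subjective night. Its ZT18 value exceeded the ZT2 value by 0.008, which was the only overlap.

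CG13012 had 4.92, 4.80 and 4.91 in the light, 4.50, 4.63 and 4.85 in the LD night, 4.66, 4.59 and 4.65 in the DD subjective day and 4.71, 4.61 and 4.45 in the DD subjective night. Among the unlit arrays, ZT22 alone reached into the lit range. CG13084 had 5.08, 5.17 and 5.28 in the light, 4.94, 4.78 and 5.06 in the LD night, 4.72, 5.02 and 4.94 in the DD subjective day and 5.08, 4.97 and 4.85 in the DD subjective night. There CT14 lay just above ZT2, by 0.003. The differences of these genes were 0.25 each.

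CG13287 and CG17005 were both highest at ZT6. CG13287 had 4.85, 5.17 and 4.96 in the light, 4.79, 4.78 and 4.68 in the LD night, 4.76, 4.88 and 4.76 in the DD subjective day and 4.77, 4.70 and 4.66 in the DD subjective night. CG17005 had 4.40, 4.71 and 4.49 in the light, 4.46, 4.29 and 4.46 in the LD night, 4.14, 4.33 and 4.39 in the DD subjective day and 4.44, 4.12 and 4.04 in the DD subjective night. In each of them ZT2 lay inside the unlit range. Without ZT6 their differences of 0.24 were 0.16 and 0.15.

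The other 8 genes were CG10916, CG13058, CG7991, CG7656, CG13982, CG7300, CG13559 and CG5273, with differences between 0.20 and 0.23. CG7300 was the steadiest in the light, at 6.21, 6.23 and 6.24, and its unlit values lay between 5.88 and 6.16. CG13982 had 5.05, 5.20 and 5.10 in the light and between 4.81 and 5.04 in darkness. These were, with CG9377, CG10508 and CG12769, the 5 genes of the 20 whose 3 lit values all exceeded their 9 unlit values. Over all 13966 tested probe sets, 191 did so (1.37%), and since the genes were chosen on that contrast nothing is read from the comparison. Of the other 15 genes, 9 had 2 lit arrays above all unlit ones, 5 had 1 and CG5273 had none.

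A single lit array carried part of the selection. Without ZT2, 17 of the 20 genes still had a difference of at least 0.2; without ZT6, 13 did; without ZT10, 18 did; and 9 genes did in all 3 cases. CG7991, CG7656 and CG10916 were below 0.2 without ZT6, at 0.13, 0.15 and 0.15. CG13559, which had 4.77, 4.75 and 4.47 in the light, was below 0.2 without ZT2 or ZT6 and had 5 unlit arrays at or above its ZT10 value. The brightest gene, CG5273, had 7.52, 7.48 and 7.44 in the light and 7.47, 7.56 and 6.98 in the LD night. Its DD values lay between 7.08 and 7.36, so ZT18 exceeded all lit arrays and the low LD array was ZT22.

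CG5273 and CG13559 lay just inside the threshold on the difference, at 0.201 and 0.212. Just outside it were CG15211 at 0.199 and CG4820 at 0.197. CG15211 had 6.59, 6.76 and 6.77 in the light, 6.72, 6.52 and 6.51 in the LD night, and between 6.33 and 6.55 in DD. CG4820 had 5.11, 5.07 and 5.33 in the light, 5.01, 4.80 and 5.12 in the LD night, and between 4.91 and 5.02 in DD. The nearest genes under the mean of 4 were CG14273, with a mean of 3.94 and a difference of 0.21, and CG7460, with 3.92 and 0.22; CG5937 and CG17005, at 4.06 and 4.35, were the nearest above it. Genes on either side of these limits thus differed little.

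CG2121, CG5455 and CG14186, left out by name, had differences of 0.58, 0.57 and 0.34, of which CG2121 and CG5455 exceeded all 20 members. CG5455 had 5.92, 6.06 and 5.94 in the light, 5.64, 5.58 and 5.31 in the LD night and between 5.25 and 5.51 in DD, with no overlap between lit and unlit arrays. CG2121 was highest in darkness, at ZT14 with 6.50, after 5.71, 6.09 and 6.25 in the light, and then stood at 5.55 and 5.24 at ZT18 and ZT22 and between 5.20 and 5.44 in DD. CG14186 also had its highest value at ZT14, 5.40, beside 5.22, 5.16 and 5.24 in the light and between 4.66 and 4.87 from ZT18 to CT22. The other 6 genes left out by name had differences of 0.12 or less and would not have met the rule.

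None of the 20 genes had another probe set with its own symbol on the array. The reverse case shows how far probe sets of a CG gene can part. The dimmer probe set of CG31140, with a mean of 4.11, had a difference of 0.23 and its brighter one, with 5.10, a difference of 0.03. For CG43366 the dimmer probe set had 0.22 and the brighter one 0.12. These genes are therefore not among the 20.

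Lit arrays were set against the unlit arrays of the same clock hours, again as a description. At hour 2 the median of ZT2 minus CT2 over the 20 genes was 0.32, at hour 6 ZT6 minus CT6 had 0.23, and at hour 10 ZT10 minus CT10 had 0.20. All 20 genes were higher in the lit array at each of these hours. The larger value at hour 2 goes with the low level of CT2, where 8 of the 20 genes had their lowest value. After each array was centred on its median, 2 genes had their lowest value at CT2, and 7 had it at CT22. Centring also brought the differences of CG13982, CG7300, CG13559 and CG5273 under 0.2, to between 0.18 and 0.19. Without CT2, CG7656, CG7300 and CG5273 were under 0.2.

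Set against darkness within the same day, LD light exceeded LD dark by a median of 0.20, from 0.06 for CG2082 to 0.45 for CG3348. Against the DD subjective day the median was 0.25, from 0.17 for CG13982 to 0.73 for CG3348, and against the DD subjective night 0.29, from 0.18 for CG5273 to 0.47 for CG9377. All 20 genes had their highest group mean in LD light.

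**Figure D3:**
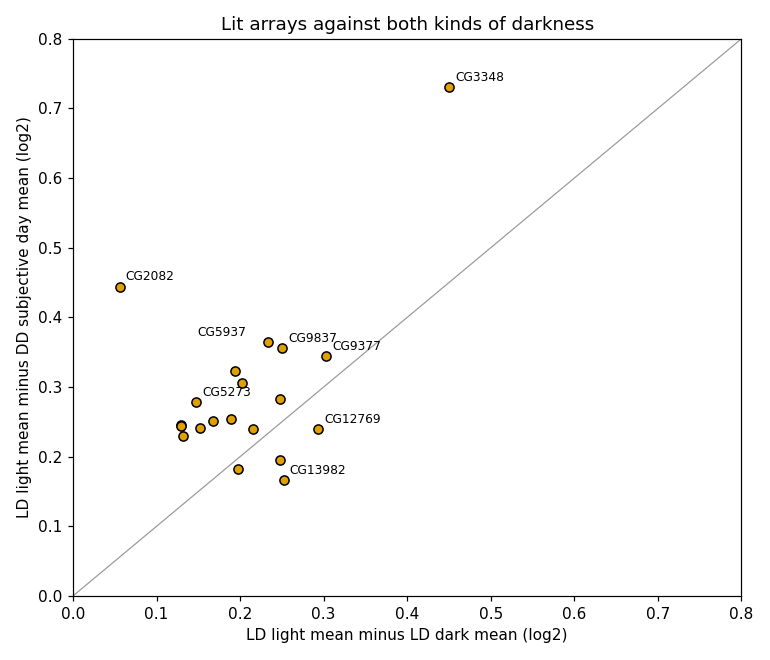
Each point is 1 of the 20 genes. The horizontal axis gives the LD light mean minus the LD dark mean, the vertical axis the LD light mean minus the DD subjective day mean, both in log2 units, and the line marks equal values. Most genes lie above the line, CG2082 farthest from it at 0.06 and 0.44, and 4 genes lie below it (CG13982, CG12769 and, without a label, CG13287 and CG7991).

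The selection used the mean of the 9 unlit arrays and not the differences among them. The exception is the genes left out by name, of which 4 were called between subjective day and night. Differences among the unlit arrays were tested with limma over all 13966 probe sets, with Benjamini-Hochberg adjustment and a threshold of 0.05. They ask whether the genes that were high in the light still differed by clock hour, or between the days, when no light was on. The DD subjective day and LD dark differ in both clock hour and day, so that comparison cannot separate them. The mean of the 9 includes the DD arrays, so a gene higher on the whole LD day could be taken. In LD light CG2082, for example, exceeded its LD dark mean by 0.06 and its DD subjective day mean by 0.44. Comparisons of DD with LD dark are therefore not free of the selection.

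No gene of the 20 passed a test between constant darkness and the LD night, although most had lower means in constant darkness. In the DD subjective day against LD dark, the median difference of the 20 was -0.09 and 16 were negative, beside a median of -0.02 over all probe sets and 59.55% negative among those with a mean of at least 4. None was called by limma and 1 had an unadjusted p under 0.05, as did 7.12% of all probe sets, of which 0% were called in either direction. CG2082 had means of 5.55 ± 0.10 in the DD subjective day and 5.94 ± 0.17 in LD dark (SD, n = 3 arrays each), a difference of -0.39 with an SE of 0.097 and a 95% interval from -0.60 to -0.18 (limma adjusted p = 0.512). Its DD subjective-day arrays all lay below its LD dark arrays, which held for 7.38% of all probe sets. The next smallest p-values belonged to CG5937 (-0.13), CG10508 (-0.13), CG13982 (0.09) and CG15905 (-0.10), each with an interval that includes 0.

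In the DD subjective night against LD dark, at the same clock hours, the median of the 20 was -0.08 and again 16 were negative, beside a median of -0.02 over all probe sets and 59.98% negative among those with a mean of at least 4. By limma 0 of the 20 were called and 1 had an unadjusted p under 0.05, as did 9.7% of all probe sets, where 0.158% of all probe sets were called higher and 0.043% lower. CG2082 had 5.64 ± 0.10 in the DD subjective night, a difference of -0.30 from LD dark with an SE of 0.097 and an interval from -0.51 to -0.10 (limma adjusted p = 0.254). CG9377 was at 5.11 ± 0.06 in the DD subjective night and 5.28 ± 0.11 in LD dark, a difference of -0.17 (SE 0.083, interval from -0.35 to 0.005). CG17005, CG13559 and CG10916 followed with -0.21, -0.14 and -0.14. All 3 DD subjective-night arrays lay below all 3 LD dark arrays for 4 genes, CG9377, CG2082, CG10508 and CG13559, and for 8.72% of all probe sets. These comparisons share the LD dark arrays.

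**Figure D4:**
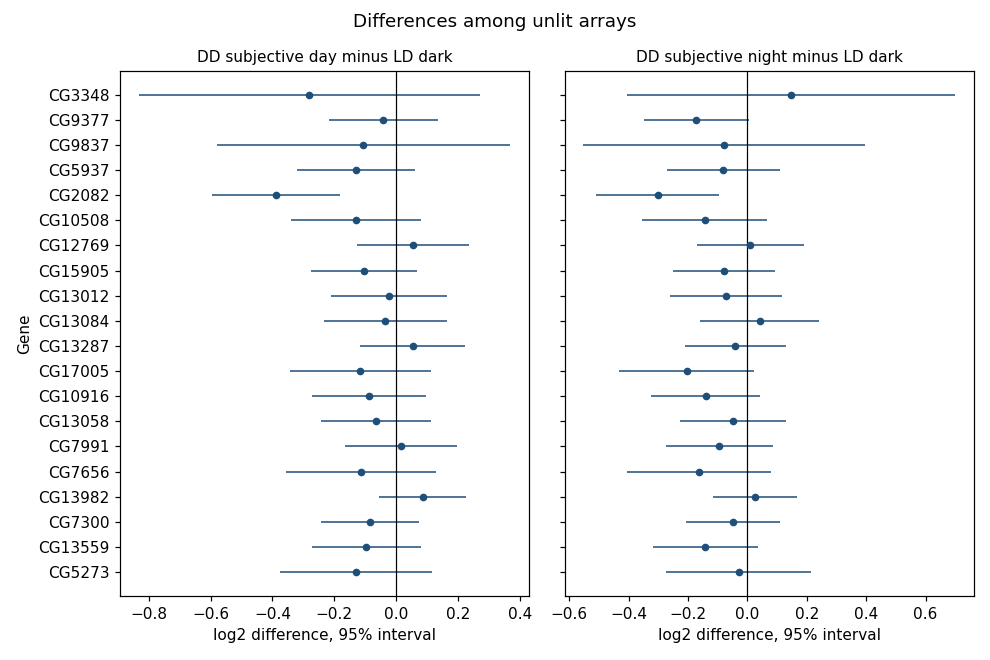
Differences among unlit arrays for the 20 genes (rows, by decreasing lit-minus-unlit difference), DD subjective day minus LD dark on the left and DD subjective night minus LD dark on the right, in log2 units. Points are limma estimates and bars their 95% intervals, before adjustment for the number of probe sets. The bars of CG2082 lie below 0 in both panels, and all other bars include 0.

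LD dark had the highest mean of the 3 unlit groups for 14 of the 20 genes, the DD subjective day for 4 and the DD subjective night for 2. Of all 7227 probe sets with a mean of at least 4, LD dark was the highest for 43.2%. CT2 and CT22 had the lowest array medians, 4.0 and 4.06, and after centring each array on its median the 20 genes had a median of -0.07 in the DD subjective day against LD dark (15 negative) and of -0.07 in the DD subjective night against LD dark (16 negative). In the unlit arrays the glial marker list moved with CG2082. Its median, relative to each gene's mean, was -0.01 ± 0.05 in LD light, -0.04 ± 0.07 in the DD subjective day, -0.02 ± 0.05 in the DD subjective night and 0.08 ± 0.06 in LD dark. Over the 9 unlit arrays, whose levels share each array's scale, CG2082 and this median had r = 0.94, and r = 0.91 after centring; it was the highest value among 10 lists and 20 genes. Over all 12 arrays r was 0.61. In the light CG2082 had its highest mean and the glial median stayed at -0.01, but CG2082 was chosen for its lit values. Nothing is therefore read from the lower r over the 12 arrays. Over the 9 arrays CG15905 and CG10508 had r = 0.91 and 0.84 with the glial list, and CG2082 had 0.81 with the hemocyte list. CG13287 had 0.88 with the photoreceptor list and CG7300 -0.84 with the female germline and follicle list. Other genes of the 20 went against the glial list, down to r = -0.39 for CG13012, and to -0.64 for CG12769 after centring. The part of glial RNA in the level of CG2082 was not tested.

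Between the DD subjective day and the DD subjective night the genes showed no called difference. The median over the 20 was 0.03, with 11 positive and 9 negative, and limma called 0 of them, with 0 at an unadjusted p under 0.05 beside 9.04% of all probe sets. In 0 of the 20 did all DD subjective-day arrays lie above all DD subjective-night arrays, which held for 6.26% of all probe sets. Of all probe sets, 0.0501% were called higher and 1.34% lower in the subjective day. CG3348 had 5.74 ± 0.34 in the DD subjective day and 6.17 ± 0.46 in the DD subjective night, a difference of -0.43 (SE 0.259, interval from -0.98 to 0.12, limma adjusted p = 0.692). Without CT18 it was -0.18 and without CT2 -0.26, while it was -0.60 without CT10 and -0.63 without CT22. CG9377 had 5.24 ± 0.10 in the DD subjective day and 5.11 ± 0.06 in the DD subjective night, a difference of 0.13 (SE 0.083). The next were CG7991, CG13287 and CG13982 at 0.11, 0.09 and 0.06. The 95% intervals reached 0.98 from 0 for CG3348 and 0.50 for CG9837, and no more than 0.35 for the other 18 genes. CG9150, CG18428, CG34229 and CG9902, which were left out by name, were called higher in the subjective day, but none of these 4 met the light threshold.

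A 24 h curve in DD was fitted to each gene, and limma called 0 of the 20, where 0.78% of all probe sets were called. An unadjusted p under 0.05 was found for 2 of the 20 and for 11.04% of all probe sets. The amplitude, the fitted peak's height above the mean, had a median of 0.07 over the 20 genes and of 0.08 over all probe sets. CG17005 had the smallest p, with an amplitude of 0.20 (SE 0.053, limma adjusted p = 0.227) and a fitted peak at hour 10.5. CG3348 had 0.47 (SE 0.149, limma adjusted p = 0.372) with a peak at hour 15.5, in the subjective night. CG13084, CG12769 and CG7656 had amplitudes of 0.13, 0.10 and 0.14.

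The selection used the mean of the lit arrays and not their order. A gene taken through a single high lit array can still owe its slope to that array. CG10508 and CG13559, for example, were under the 0.2 of the selection without ZT2. Slopes in the light, here and in the slope differences that follow, are therefore not free of the selection. The change from hour 2 to hour 10 in the light was positive for 10 genes and negative for 10, from -0.82 to 0.34. None was called by limma and 4 had an unadjusted p under 0.05, as did 5.99% of all probe sets, of which 0.0143% were called in each direction. CG15905 changed by 0.34 (SE 0.119, interval from 0.08 to 0.59, limma adjusted p = 0.723) and CG2082 by 0.32 (SE 0.121), both with ZT2 lowest and ZT10 highest. CG10508 changed by -0.39 (SE 0.147), CG13559 by -0.30 (SE 0.126) and CG3348 by -0.82 (SE 0.377), with ZT2 the highest. Single arrays moved the last 3 of these values. Without ZT2 CG10508 had 0.07, CG13559 -0.55 and CG3348 -0.06, and without ZT10 they had -0.85, -0.04 and -1.57 in the same order. The genes thus did not share 1 order of the lit hours.

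The same change in the light minus that in the DD subjective day, both from hour 2 to hour 10, was largest for CG3348, at -0.82 in the light and 0.68 in the DD subjective day, a difference of -1.50 (SE 0.533, limma adjusted p = 0.65). By p-value CG10508 came next with a difference of -0.53, then CG9837 with -0.81, CG5937 with -0.31 and CG7656 with -0.45. Without ZT2 the value of CG3348 was -0.74 and that of CG10508 -0.07, and without CT2 those of CG10508 and CG9837 were -0.13 and -0.44. None of the 20 was called by limma and 2 had an unadjusted p under 0.05, as did 6.63% of all probe sets, of which 0% were called in either direction. The low level of CT2 enters each of these slopes.

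Correlations among the 20 genes in darkness ranged widely. Over the 190 pairs, the correlation across the 9 unlit arrays had a median of 0.20 and ran from -0.72 (CG13012 with CG5273) to 0.87 (CG10508 with CG15905); 131 pairs were above 0. CG2082 had r = 0.84 with CG15905 and 0.76 with CG10508. All genes share each array's scale and the same values were not computed for other probe sets, so these are descriptions. In the RefSeq gene order no gene of the 20 stood next to another. Of the 37 measured next-door genes, 0 had a lit-minus-unlit difference of 0.2 or more, with a median of 0.03 and a highest value of 0.13. Among all genes with 1 symbol and a mean of at least 4, the share was 1.4%. Some next-door genes were dimmer than that, and nothing is read from their count. The lowest was CG3906, next to CG13559, at -0.56.

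Few genes of either naming met the thresholds. Before any were left out by name, 23 of 2216 CG genes with a mean of at least 4 had a difference of 0.2 or more (1.04%), and 62 of 3706 genes with another symbol did (1.67%). The mirrored difference, lower in light by 0.2 or more, was met by 71 CG genes (3.2%) and by 121 genes with another symbol (3.27%). Of the photoreceptor markers, trpl, which encodes a channel that opens downstream of rhodopsin, had a difference of 0.47, while rdgC, a rhodopsin phosphatase gene, and Pdh, a photoreceptor dehydrogenase gene, had -0.48 and -0.27. The median of that list differed by 0.01. Of the head fat body markers, Lsp2, a storage protein gene, had 0.43 and FASN1, a fatty acid synthase gene, 0.39, and the median of that list differed by 0.03. Other list medians differed by 0.08 (neuron), 0.05 (cuticle and epidermis), 0.05 (female germline and follicle), 0.004 (hemocyte) and -0.01 (glia). The midgut, male and thorax muscle lists differed by -1.02, -0.49 and -0.16.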

How the data were processed

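RNA from pooled heads was hybridised to 12 one-colour Affymetrix arrays. The deposited table holds log2 values made by the authors with RMA (version not given in the sources used here), per the submitters' processing notes. The number of arrays limits the precision. Of 14010 probe sets, 44 controls were left out. Probe sets were named through GEO's platform annotation, which gives 12442 tested probe sets 1 symbol, and symbols were checked through Entrez identifiers in RefSeq. Members and lists were chosen with earlier results of these data known. All members may be named; values in every array are given for the 12 largest differences, with genes nearest the limits, and the 5 smallest p-values where no member was called. Differences were fitted with limma 3.58.1 in R 4.3.3: 4 group means (8 residual degrees of freedom), group means with slopes over the hour (4), and 24 h cosine and sine terms per day (6). No p-value covers spread beyond these 12 arrays. The scripts were tested on simulated data. Alternatives were other scalings, a filter on dim probe sets, other priors, array weights, fewer groups, and each array left out. No sequences were used here.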

Additional observations from a re-analysis of the deposited data

How the results depend on the processing

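Limma called 0 of the genes in each of the 6 tested comparisons with quantile normalization, median centring, a trended robust prior, array weights or any array left out. It also called 0 of the 19 genes brighter than the median mean (CG5937 is dimmer), 0 with only the groups compared (run for the 3 group differences and the DD curve), and 0 with a trend over collection hours (run for DD subjective day against night). Pairing LD dark and DD subjective night by clock hour as a replicate block gave 0 called genes, with CG2082 at -0.30 (limma adjusted p = 0.21); same-hour arrays deviated together with r of 0.08, 0.04 and -0.03, so the hours were not treated as pairs. Among the 5 genes with the smallest p in each comparison, single arrays turned the sign of 2 uncalled values; signs of the other genes were not followed: the change of CG10508 over the lit hours was 0.07 without ZT2 and ran down to -0.85 when other arrays were left out, and the slope difference of CG7656 was 0.02 without CT2 and ran down to -0.91. The number of genes meeting the rule, 20, was 21 with quantile normalization (18 of them shared), 16 with median centring, 4 at a difference of at least 0.3 and 9 at a mean of at least 5. Leaving out arrays gave 19 to 45 genes, with 41 without ZT2, 35 without ZT6 and 45 without ZT10, of which 17, 13 and 18 were among the 20. Dimness limits CG5937 most, whose mean is near the median of all probe sets.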
